A study of Mus musculus with 20 samples.

Results

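Mouse embryonic stem cells that had first been driven towards mesendoderm were compared with cells that had not, after both had received the same combinations of signals. The wells compared were those of the mixed plates in which each of 5 pathways was set to plus or minus by the design table and which held at least 5 assigned cells. There were 126 such wells, 64 with the Mesendoderm start and 62 with the Undirected start, of 128 treated wells and 144 wells in all. They held 4121 cells (2699 in Mesendoderm wells and 1422 in Undirected wells) of 4869 assigned cells, among 5944 cells in the matrix. The 16 control wells, 8 per start, which received no combination, served as a second comparison. The other experiments of the series, which has 20 labelled samples, were not used here.

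All wells came from a male line of 129P2/OlaHsd embryonic stem cells that had been withdrawn stepwise from medium with LIF, GSK3 inhibitor XV and UO126. In Mesendoderm wells, cells spent 24 h in differentiation medium with CD 2665 (an antagonist of retinoic acid receptors), Activin A, GSK3 inhibitor XV (which activates Wnt signalling), Dorsomorphin (which blocks BMP receptors) and Fgf2, and then 24 h with a combination. In Undirected wells, cells spent 24 h in differentiation medium without these agents and then 24 h with a combination. The 32 combinations set retinoic acid (RA), Wnt, Tgfb, Bmp and Fgf signalling to plus or minus, with a pair of wells for each combination and start. The compounds behind plus and minus are not named in the mixed design table. Each well was transfected with its own mix of barcodelets, short synthetic RNAs that tag its cells, before the cells of all wells were pooled into 1 droplet library. Both wells of 1 combination, Undirected with RA, Wnt and Bmp at plus and Tgfb and Fgf at minus, held under 5 cells, so 31 combinations could be compared in both starts. Wells were separate cultures of 1 line in 1 experiment, and p-values measure the spread between such wells. The third barcodelet of the mix was BB or CC in all Undirected wells and DD or Z in all Mesendoderm wells. Undirected wells were numbered 1 to 72 and Mesendoderm wells 73 to 144. The start therefore cannot be told apart from these blocks of wells, and the spread between wells does not measure a difference between blocks.

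Mesendoderm is the transient state of the primitive streak from which mesoderm and definitive endoderm arise. Wnt, Nodal and FGF signals open it, and T (brachyury), a T-box factor that is itself a target of Wnt signalling, marks it. Retinoic acid acts later and switches on the anterior Hox genes, whereas Wnt and FGF maintain the caudal epiblast, the tail-end progenitors that carry Cdx and more posterior Hox genes.

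Wells of the 2 starts differed in cell number more than in depth per cell. Mesendoderm wells held 42.2 ± 19.6 cells and Undirected wells 22.9 ± 12.9 cells (mean ± SD, n = 64 and 62 wells; p = 1e-05, the smallest value that the 2-sided permutation test of 100000 resamples can give). The median number of UMIs (counted molecules) per cell averaged 19757 in Mesendoderm wells and 20116 in Undirected wells (p = 0.537, same permutation test). The share of ribosomal protein genes averaged 31.8% in Mesendoderm wells and 30.3% in Undirected wells (p = 0.0197, same permutation test). The median barcodelet count per cell averaged 8119 in Mesendoderm wells and 5204 in Undirected wells (p = 0.0002, same permutation test). That test pooled the blocks of wells within each start. Well medians ran from 760 to 10620.5 in Mesendoderm wells with DD and from 4963 to 23621 in those with Z. They ran from 1688.5 to 8973.5 in Undirected wells with BB and from 579.5 to 20368 in those with CC. The barcodelet difference thus lay mainly in the Z wells, and DD and BB wells had similar ranges. Summed over the cells of a well, there were 195183 to 2119360 UMIs per Mesendoderm well and 101140 to 1316990 per Undirected well, so levels in Undirected wells are the less precise ones. In such sums, fewer cells of a type and less RNA per cell cannot be told apart.

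Among genes that passed the main filter on low counts, the start left a wide but shallow difference. Of 6417 genes tested with edgeR's quasi-likelihood test, 884 (13.8%) were higher and 875 (13.6%) lower in Mesendoderm than in Undirected wells at an adjusted p under 0.05. Of these, 23 genes (0.358%) were higher and 1 (0.0156%) lower by more than 1 on the log2 scale, and none by more than 2. Some genes too low for this filter differed by more than 2, among them Hoxc9, Wnt5a and Hoxc8, given below. The median absolute log2 difference over all genes was 0.0896, and for no gene were the wells of the 2 starts fully separate. The start took a median of 1.33% of a gene's variation between wells, against 3.36% for Wnt, 2.42% for RA, 1.19% for Fgf, 0.917% for Bmp and 0.642% for Tgfb. It was the largest of these 6 terms for 927 genes (14.45%). The products of start and pathways together took a median of 4.17%, and a median of 76.6% was left to none of these terms. Throughout, a log2 difference is Mesendoderm over Undirected, fitted as the average over plus and minus of all 5 pathways, and levels are scaled counts relative to library size (CPM, from edgeR).

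**Figure D1:**
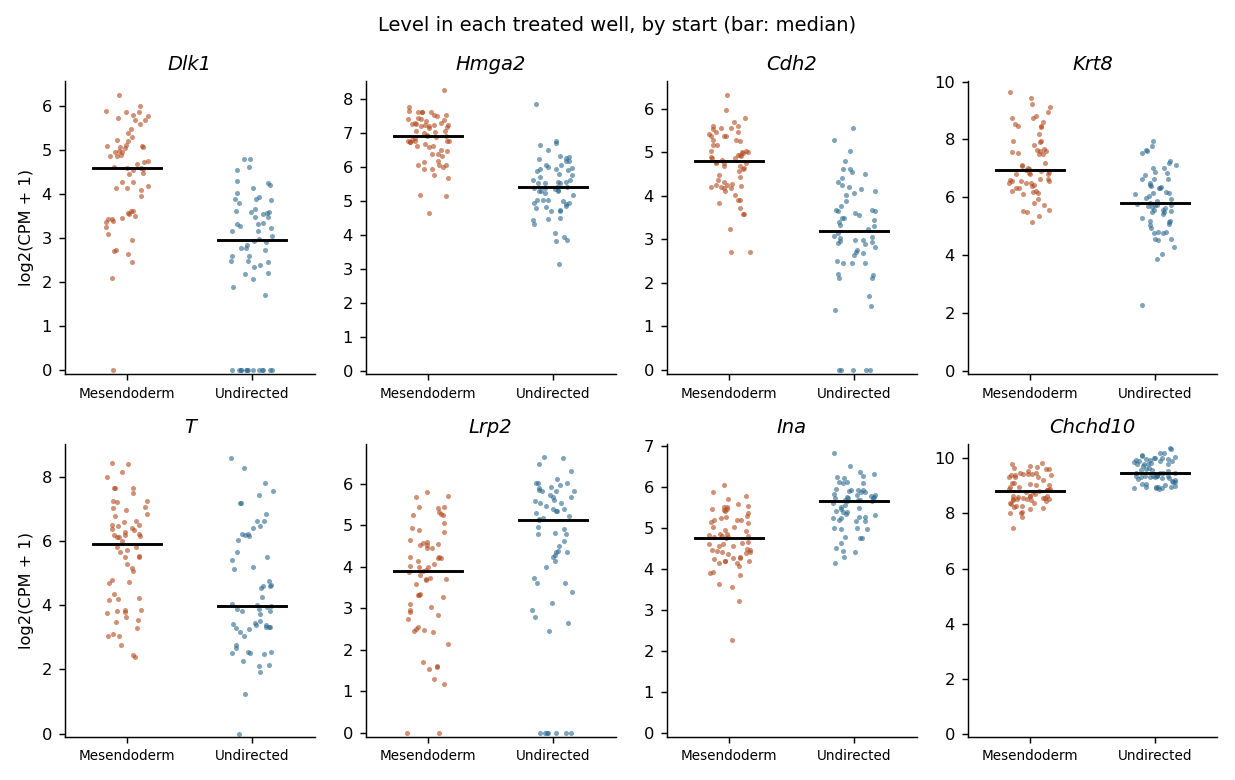
Level of 8 genes in each treated well as log2(CPM + 1), with Mesendoderm wells (64) left of Undirected wells (62) in each panel. Points are wells and black bars are medians, and the wells of the 2 starts overlap in every panel.

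The markers that define mesendoderm were the first check of the start. T (chr17:8434423-8442496, plus strand, mm10) had 4.22, 59.7 and 348 CPM in the lowest, middle and highest Mesendoderm wells, against 0, 14.8 and 389.8 CPM in Undirected wells. The highest wells of both starts were at similar levels, and the starts differed most among the lower wells. The log2 difference of T was 1.15 ± 0.16 (SE, adjusted p = 3.64e-09), and its mean was higher with the Mesendoderm start in 29 of 31 combinations. Fgf8 (chr19:45736798-45742915, minus strand), an FGF ligand of the streak and tail bud, had 0.603, 24.1 and 164 CPM in the lowest, middle and highest Mesendoderm wells, against 0, 6.18 and 84.7 CPM in Undirected wells. Its log2 difference was 1.47 ± 0.21 (adjusted p = 9.69e-09), with the Mesendoderm mean higher in 26 of 31 combinations.

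Most other streak markers were too low for this filter and were tested among the 15030 genes with a UMI in at least 20 wells, a wider filter chosen after seeing the data. There, 1386 genes (9.22%) were higher and 1270 (8.45%) lower with the Mesendoderm start. A gene can pass that filter through the start where it is high, so list members are counted under it only where they had a UMI in at least 20 wells of each start, a rule also chosen after seeing the data. Of the 12938 genes that met this, 1252 (9.68%) were higher and 1225 (9.47%) lower. Of 15 streak and mesendoderm markers 12 met it, and 7 were higher and none lower. Mixl1, a homeobox factor of the streak, averaged 48.2 ± 65.8 CPM in Mesendoderm wells and 22.5 ± 51.1 CPM in Undirected wells (SD), a log2 difference of 1.56 ± 0.24 (adjusted p = 5.07e-08). Evx1, a homeobox gene of the posterior streak, averaged 15.2 CPM in Mesendoderm wells and 6.07 CPM in Undirected wells, a log2 difference of 1.31 ± 0.22. Lhx1 and Snai1 were higher as well, at means of 2.54 and 9.36 CPM in Mesendoderm wells, against 1.17 and 5.46 CPM in Undirected wells. Tbx6, a factor of presomitic mesoderm, had 88 UMIs over all Mesendoderm wells and 13 over all Undirected wells and is not counted. Eomes, Gsc and Foxa2, markers of the early and anterior streak, did not pass the test. Eomes, a T-box factor, averaged 7.90 CPM in Mesendoderm wells and 7.44 CPM in Undirected wells (adjusted p = 1.000). Gsc, a homeobox gene of the organizer, averaged 2.64 CPM in Mesendoderm wells and 1.20 CPM in Undirected wells (adjusted p = 0.149). Foxa2, a factor of endoderm and node, averaged 2.71 CPM in Mesendoderm wells and 2.78 CPM in Undirected wells (adjusted p = 0.931).

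Endoderm, the other product of mesendoderm, gave few calls. Of 12 markers counted under the wider filter 2 were higher (Sox17 and Trh) and 2 lower (Epcam and Spink1). These shares are near the 9.68% of all genes higher and 9.47% lower there. Sox17, a transcription factor of definitive and extraembryonic endoderm, averaged 8.15 ± 8.91 CPM in Mesendoderm wells and 5.26 ± 13.0 CPM in Undirected wells, a log2 difference of 1.04 ± 0.29 (adjusted p = 0.00507). Epcam, an adhesion molecule of epithelia, stem cells included, averaged 97.5 ± 19.5 CPM in Mesendoderm wells and 127 ± 39.9 CPM in Undirected wells. The wells labelled Mesendoderm thus had higher T, Mixl1, Fgf8 and Evx1 than Undirected wells, whereas Eomes, Gsc and Foxa2 were not called.

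Direct targets of Wnt signalling moved in 1 direction. Of 11 tested, 10 were higher with the Mesendoderm start and none lower, against 13.8% of all genes tested higher and 13.6% lower. Their median log2 difference was 0.77, against a median of -0.0053 over all genes. Axin2 (chr11:108920349-108950783, plus strand), a scaffold of the complex that degrades beta-catenin, had 17.8, 92.4 and 309.6 CPM in the lowest, middle and highest Mesendoderm wells, against 0, 45.5 and 310.4 CPM in Undirected wells. Its log2 difference was 0.77 ± 0.08 (adjusted p = 2.46e-15). Notum and Nkd1, a secreted and an intracellular inhibitor of the pathway, differed by 0.86 ± 0.14 and 0.85 ± 0.14 on the log2 scale. Dkk1, a secreted inhibitor of Wnt receptors, differed by 1.03 ± 0.20, and the nuclear partners of beta-catenin, Tcf7 and Lef1, by 0.42 ± 0.07 and 0.48 ± 0.09. Sp5 (chr2:70474923-70477729, plus strand), a zinc finger factor induced by Wnt, had 2.92, 46.4 and 247 CPM in the lowest, middle and highest Mesendoderm wells, against 0, 16.4 and 313 CPM in Undirected wells, a log2 difference of 0.79 ± 0.13. Under the wider filter 12 of 14 targets were higher, against 9.68% of all genes there. Among them was Lgr5, a receptor of R-spondins, at means of 2.59 CPM in Mesendoderm wells and 1.62 CPM in Undirected wells.

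The promoters of 3 of these targets are shown because Tcf7 and Lef1, which read the Wnt signal, bind a short core motif. The windows run from 250 bases before to 50 bases after the transcript start in RefSeq (GRCm38.p6), all on the plus strand. Capitals mark each CTTTGA or CTTTGT on either strand. The window of T is chr17:8434173-8434472, that of Sp5 chr2:70474673-70474972 and that of Axin2 chr11:108920099-108920398.
T: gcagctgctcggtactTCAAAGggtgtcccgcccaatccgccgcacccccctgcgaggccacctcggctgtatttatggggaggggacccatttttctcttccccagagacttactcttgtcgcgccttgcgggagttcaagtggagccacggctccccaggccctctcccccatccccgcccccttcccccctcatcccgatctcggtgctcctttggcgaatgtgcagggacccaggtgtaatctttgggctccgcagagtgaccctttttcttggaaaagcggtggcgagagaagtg
Sp5: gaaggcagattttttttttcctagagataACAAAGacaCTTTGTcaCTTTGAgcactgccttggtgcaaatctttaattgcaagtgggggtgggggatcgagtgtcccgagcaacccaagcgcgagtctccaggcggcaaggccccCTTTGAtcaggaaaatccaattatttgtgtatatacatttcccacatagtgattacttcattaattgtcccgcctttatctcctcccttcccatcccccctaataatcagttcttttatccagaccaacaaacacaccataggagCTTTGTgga
Axin2: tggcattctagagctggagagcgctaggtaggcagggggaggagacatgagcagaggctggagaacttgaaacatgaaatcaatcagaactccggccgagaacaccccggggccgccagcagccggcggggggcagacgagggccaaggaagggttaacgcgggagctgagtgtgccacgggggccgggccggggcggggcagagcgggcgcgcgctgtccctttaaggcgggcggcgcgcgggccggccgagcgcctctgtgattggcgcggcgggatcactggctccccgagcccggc
The Sp5 window held 5 matches, the T window 1 and the Axin2 window 0. Of the 10 Wnt targets that were higher, 7 had a promoter in the table, with 11 windows in all, and 4 of those held a match. The motif was in 31.2% of all 32851 promoter windows of this length, so a match describes the letters only.

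Of 8 tested genes of the caudal epiblast, 7 were higher, among them Cdx1, Cdx2, Fgf8, Greb1 and Sp5, and none lower, against 13.8% of all genes tested higher and 13.6% lower, with a median log2 difference of 0.78. Cdx1 (chr18:61018862-61036199, minus strand), a homeobox factor that answers both Wnt and retinoic acid, had 7.60, 169 and 863 CPM in the lowest, middle and highest Mesendoderm wells, against 4.44, 69.8 and 738 CPM in Undirected wells, a log2 difference of 0.77 ± 0.08. Cdx2, its paralog, averaged 67.0 ± 53.4 CPM in Mesendoderm wells and 50.8 ± 47.2 CPM in Undirected wells. Greb1, a cofactor first known from oestrogen response, had 5.53, 23.1 and 98.7 CPM in the lowest, middle and highest Mesendoderm wells, against 0, 10.9 and 44.6 CPM in Undirected wells, and differed by 1.15 ± 0.12. Under the wider filter 11 of 13 were higher, against 9.68% of all genes there, with Cdx4, Nkx1-2, Fgf17 and Evx1 added.

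All 5 Hox genes that passed the main filter were higher with the Mesendoderm start, as were 22 of the 25 counted under the wider filter, with none lower. The share of all genes higher was 13.8% under the main filter and 9.68% under the wider one. Hoxc9 averaged 15.0 ± 13.1 CPM in Mesendoderm wells and 2.64 ± 4.61 CPM in Undirected wells, a log2 difference of 2.39 ± 0.25 (adjusted p = 1.22e-14). Hoxc8 averaged 17.6 ± 14.3 CPM in Mesendoderm wells and 4.21 ± 6.26 CPM in Undirected wells, a difference of 2.15 ± 0.23. Hoxa9 and Hoxd9, also of the posterior part of their clusters, differed by 1.73 ± 0.27 and 1.35 ± 0.22. For some members the means were about equal or the other way round although the fitted difference was positive. Hoxb4 (chr11:96318267-96321638, plus strand) averaged 20.2 CPM in Mesendoderm wells and 21.0 CPM in Undirected wells, yet its fitted log2 difference was 0.98 ± 0.19, and Hoxb5 averaged 10.5 CPM in Mesendoderm wells and 17.3 CPM in Undirected wells, with a fitted difference of 1.18 ± 0.25. The direction of these genes depended on the model: with 1 shared effect per pathway for both starts, the log2 differences of Hoxb2, Hoxb4, Hoxa5 and Hoxb1 were -0.092, -0.32, -0.10 and -0.030, none of them called. The fit averages log values over conditions and the mean CPM does not, so the fitted difference and the means need not share a direction. Why the fitted direction changed with the terms of the model was not tested. Hox genes of a cluster lie close together, and Hoxa5 overlaps Hoxa3 on the same strand, so their reads may not be fully separate.

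Dlk1 (chr12:109452823-109463336, plus strand), an imprinted membrane protein related to Notch ligands, had 0, 23.1 and 75.3 CPM in the lowest, middle and highest Mesendoderm wells, against 0, 6.75 and 26.7 CPM in Undirected wells. Its log2 difference, 1.59 ± 0.16 (adjusted p = 3.07e-15), was the largest of the 6417 genes tested, and the Mesendoderm mean was higher in 30 of 31 combinations. Hmga2 (chr10:120361275-120476469, minus strand), a chromatin protein of growing embryonic tissue, had 24.2, 118 and 307 CPM in the lowest, middle and highest Mesendoderm wells, against 7.86, 41.0 and 229.7 CPM in Undirected wells. It differed by 1.33 ± 0.10 (adjusted p = 9.10e-22), and its mean was higher with the Mesendoderm start in 31 of 31 combinations. Cdh2 (chr18:16588877-16809246, minus strand), N-cadherin, the adhesion molecule that cells gain as they leave the epiblast epithelium, had 5.49, 27.0 and 79.0 CPM in the lowest, middle and highest Mesendoderm wells, against 0, 8.14 and 46.2 CPM in Undirected wells. Its difference was 1.40 ± 0.13, with the Mesendoderm mean higher in 31 of 31 combinations.

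Ccnd2, the cyclin D2 that drives entry into the cell cycle, averaged 97.7 ± 54.7 CPM in Mesendoderm wells and 39.8 ± 21.1 CPM in Undirected wells, a log2 difference of 1.15 ± 0.10. Igfbp4, a secreted carrier of insulin-like growth factors, averaged 41.9 ± 24.2 CPM in Mesendoderm wells and 15.5 ± 11.2 CPM in Undirected wells, a difference of 1.32 ± 0.13. Pmp22, a membrane protein best known from peripheral myelin, averaged 50.4 ± 46.7 CPM in Mesendoderm wells and 27.1 ± 36.9 CPM in Undirected wells, a difference of 1.34 ± 0.19. Krt8 and Krt18 are the partner keratins of simple epithelia and trophoblast. Krt8 averaged 194 ± 168 CPM in Mesendoderm wells and 73.3 ± 53.5 CPM in Undirected wells, and Krt18 189 ± 154 CPM in Mesendoderm wells and 74.4 ± 65.4 CPM in Undirected wells. Of 4 tested markers of surface ectoderm and trophoblast, 3 were higher, both keratins and Cdx2, against 13.8% of all genes. Under the wider filter 4 of 11 were higher, with Krt7 added, against 9.68% of all genes there.

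**Figure D2:**
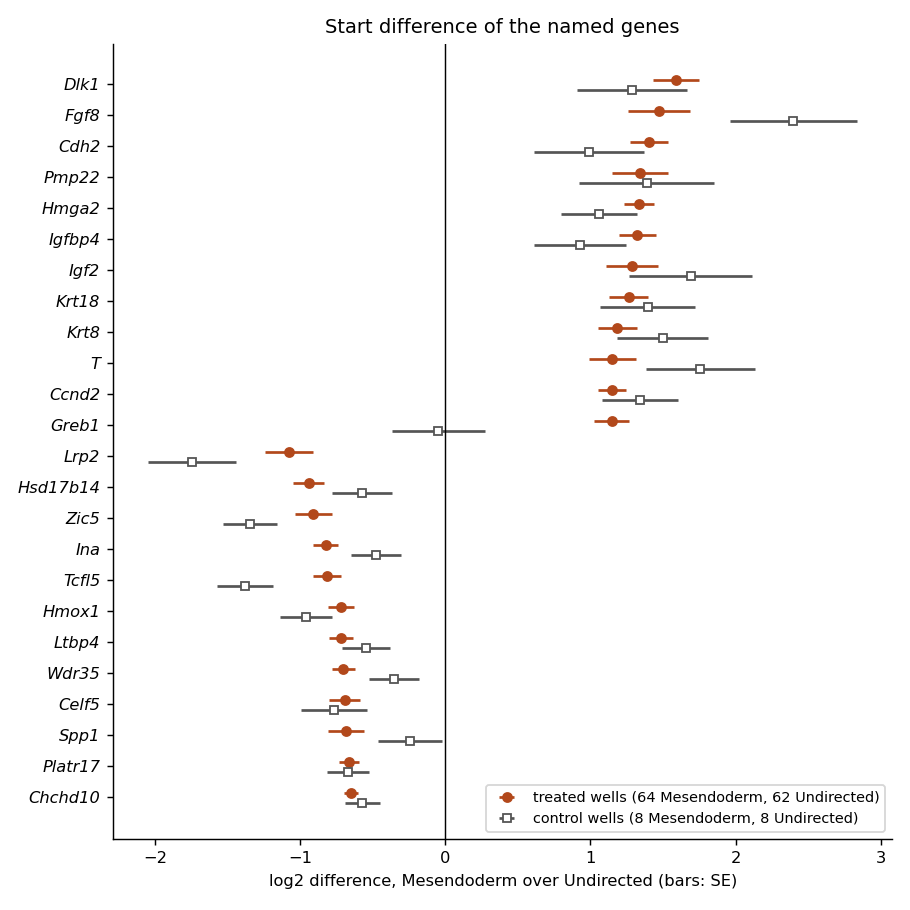
Log2 difference of Mesendoderm over Undirected wells for the 12 genes named in each direction, in treated wells (filled) and control wells (open), with bars for the SE. Greb1 lies at 1.15 in treated wells and at -0.05 in control wells.

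Imprinted genes, expressed from the copy of a single parent, were divided. Of 12 tested, against 13.8% of all genes higher and 13.6% lower, 7 were higher (Dlk1, Igf2, Cdkn1c, Peg3, H19, Phlda2 and Peg10) and 2 lower (Meg3 and Snrpn). Igf2, an embryonic growth factor, had 3.91, 29.1 and 387 CPM in the lowest, middle and highest Mesendoderm wells, against 0, 10.7 and 85.5 CPM in Undirected wells, a log2 difference of 1.29 ± 0.18. Peg3, a paternally expressed zinc finger gene, averaged 284 ± 121 CPM in Mesendoderm wells and 130.4 ± 56.6 CPM in Undirected wells. Cdkn1c, an inhibitor of cyclin-dependent kinases, differed by 1.12 ± 0.16. Meg3, the noncoding RNA of the same imprinted domain as Dlk1 and expressed from the other parental copy, averaged 330.4 ± 100.3 CPM in Mesendoderm wells and 446 ± 264 CPM in Undirected wells, a log2 difference of -0.24 ± 0.07 (adjusted p = 0.00434).

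All 3 tested genes of lateral and extraembryonic mesoderm (Msx1, Msx2 and Tbx3) were higher, as were 7 of 12 under the wider filter, with none lower. These and the counts that follow are to be read against all genes. Of those, 13.8% were higher and 13.6% lower under the main filter, and 9.68% higher and 9.47% lower under the wider one. Wnt5a, a Wnt ligand of the elongating tail, averaged 13.2 ± 12.1 CPM in Mesendoderm wells and 2.30 ± 2.90 CPM in Undirected wells, a log2 difference of 2.22 ± 0.23 (adjusted p = 1.11e-14). Of the 2 tested paraxial genes, Cited1, a transcriptional coactivator, was higher and Tcf15, a factor of somite epithelium, was lower. Under the wider filter 3 of 9 paraxial genes were higher (Pax3, Rspo3 and Cited1) and 1 lower (Tcf15). Of 7 tested genes of the epithelial to mesenchymal transition, 3 were higher (Cdh2, Vim and Fn1) and 2 lower, with a median log2 difference of -0.10, and under the wider filter 9 of 16 were higher and 2 lower. Vim, the filament protein vimentin, averaged 86.2 ± 47.5 CPM in Mesendoderm wells and 44.6 ± 26.6 CPM in Undirected wells. Fn1, fibronectin, averaged 159.6 ± 112 CPM in Mesendoderm wells and 89.4 ± 41.7 CPM in Undirected wells. Snai1, Snai2, Zeb1, Zeb2 and Twist1, repressors of the epithelial state, were higher under the wider filter. Cdh1 (E-cadherin) and Epcam, the epithelial adhesion molecules, were lower, with log2 differences of -0.25 ± 0.07 and -0.36 ± 0.05.

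Markers of fibroblasts, a cell type that stem cell cultures can carry as feeders, moved in the same direction. Of 12, 7 were counted under the wider filter, and 5 were higher (Col1a1, Col1a2, Pdgfrb, Acta2 and Tagln) and none lower. The list summed to a lowest, median and highest value of 10.99, 85.6 and 225 CPM in Mesendoderm wells, against 0, 45.0 and 114 CPM in Undirected wells. Tagln, an actin-binding protein, made up most of it at 60.0 ± 34.5 CPM in Mesendoderm wells and 34.0 ± 20.8 CPM in Undirected wells, and Col1a1, the defining collagen, averaged 7.60 CPM in Mesendoderm wells and 1.75 CPM in Undirected wells. The part of such cells in the mesenchymal genes was not tested. Of 12 markers of parietal and visceral endoderm counted under the wider filter, 2 were lower (Lrp2 and Apoe) and 1 higher (Pdgfra), near the 9.47% of all genes lower and 9.68% higher there, and the list's sum had a median of 392 CPM in Mesendoderm wells and 358 CPM in Undirected wells, with a range of 213 to 954 CPM in Mesendoderm wells and 143 to 2099 CPM in Undirected wells.

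Of 7 tested BMP targets, 6 were higher (Msx1, Msx2, Bambi, Id3, Id2 and Smad7), with a median log2 difference of 0.33, and under the wider filter 6 of 16, with a median of 0.24, where Id2 was not called. Id3, an inhibitor of basic helix-loop-helix factors, averaged 301 ± 197 CPM in Mesendoderm wells and 256 ± 198 CPM in Undirected wells, a log2 difference of 0.33 ± 0.07 (adjusted p = 1.64e-04). Of 8 tested Nodal and Activin targets, 1 was higher, Smad7, by 0.19 ± 0.07, a share near the 13.8% of all genes. Under the wider filter 3 of 12 were higher (Smad7, Mixl1 and Lhx1) and none lower, against 9.68% of all genes higher there. Mixl1 and Lhx1 are also among the streak markers. Lefty2, an antagonist and target of Nodal, averaged 79.1 ± 77.2 CPM in Mesendoderm wells and 62.2 ± 68.5 CPM in Undirected wells and was not called (adjusted p = 0.0592). Of 7 targets of FGF and ERK signalling, 3 were higher (Spred1, Etv4 and Phlda1). Phlda1, an early target of growth factors, had 17.5, 66.7 and 143 CPM in the lowest, middle and highest Mesendoderm wells, against 6.31, 26.6 and 82.5 CPM in Undirected wells, a log2 difference of 1.11 ± 0.11. None of 4 tested Notch genes was called.

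**Figure D3:**
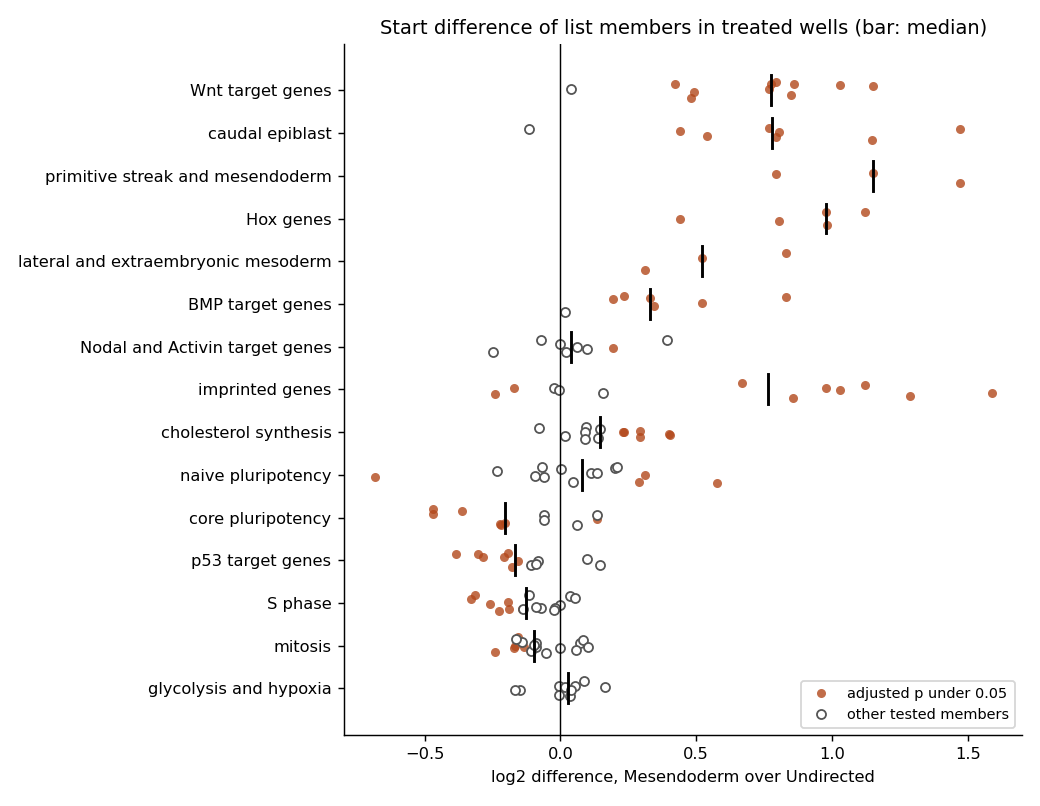
Log2 difference of Mesendoderm over Undirected wells for each tested member of 15 gene lists. The Wnt target list has a median of 0.77 and the core pluripotency list one of -0.20.

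The genes that were lower differed by less. Lrp2 (chr2:69424340-69586065, minus strand), megalin, an endocytic receptor of visceral endoderm and neural tube, had 0, 14.1 and 55.2 CPM in the lowest, middle and highest Mesendoderm wells, against 0, 34.1 and 98.6 CPM in Undirected wells. Its log2 difference, -1.08 ± 0.17 (adjusted p = 6.48e-08), was the only called one below -1 among the 6417 genes, and the Mesendoderm mean was the higher one in 6 of 31 combinations. Zic5 (chr14:122456795-122465677, minus strand), a zinc finger factor of the neural plate, had 1.58, 11.3 and 35.2 CPM in the lowest, middle and highest Mesendoderm wells, against 0, 27.4 and 134 CPM in Undirected wells, a difference of -0.91 ± 0.13. Chchd10, a mitochondrial protein, had 178, 454 and 906 CPM in the lowest, middle and highest Mesendoderm wells, against 474, 708 and 1335 CPM in Undirected wells, a difference of -0.65 ± 0.05 (adjusted p = 1.37e-23). Ina, an intermediate filament of neurons, averaged 28.1 ± 12.7 CPM in Mesendoderm wells and 48.4 ± 18.8 CPM in Undirected wells, and the Mesendoderm mean was the higher one in 1 of 31 combinations. Hmox1, the haem oxygenase induced by oxidative stress, averaged 40.4 ± 16.6 CPM in Mesendoderm wells and 73.1 ± 41.5 CPM in Undirected wells. Hsd17b14, Tcfl5, Ltbp4, Wdr35, Celf5, Spp1 and Platr17 were the others named, with log2 differences between -0.94 and -0.67.

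Neural ectoderm had no higher member under either filter. Under the wider filter 4 of 11 were lower (Zic2, Zic5, Nkx6-2 and Ncan), against 9.68% of all genes higher and 9.47% lower there. Ncan, a proteoglycan of neural matrix, averaged 1.19 CPM in Mesendoderm wells and 3.63 CPM in Undirected wells, a log2 difference of -1.49 ± 0.24. Sox1 and Pax6, early neural factors, were not called (adjusted p = 0.740 and 0.775). Pou3f1, a factor of primed epiblast and early neural cells, averaged 10.3 ± 10.8 CPM in Mesendoderm wells and 43.3 ± 69.0 CPM in Undirected wells, a difference of -0.82 ± 0.23. It was listed with the primed epiblast and not with neural ectoderm. Of 11 primed epiblast genes under the wider filter, 3 were higher (Lef1, Wnt8a and Cdh2) and 3 lower (Pou3f1, Dnmt3a and Dnmt3b).

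Pluripotency genes of the core were lower by small amounts. Of 11 tested, 6 were lower (Pou5f1, Sox2, Utf1, Dppa4, L1td1 and Gdf3) and 1 higher (Sall4). Pou5f1 (Oct4) had 175, 313 and 598 CPM in the lowest, middle and highest Mesendoderm wells, against 170.0, 387 and 876 CPM in Undirected wells, a log2 difference of -0.20 ± 0.05 (adjusted p = 3.58e-04). Utf1, a chromatin factor of undifferentiated cells, averaged 142 ± 78.7 CPM in Mesendoderm wells and 229 ± 172 CPM in Undirected wells. Nanog averaged 89.5 ± 49.3 CPM in Mesendoderm wells and 81.8 ± 46.8 CPM in Undirected wells and was not called (adjusted p = 0.284). Of 14 genes of the naive state, 3 were higher (Klf4, Klf5 and Tbx3) and 1 lower (Spp1), shares near the 13.8% and 13.6% of all genes. Both de novo DNA methyltransferases were lower, Dnmt3b with a log2 difference of -0.60 ± 0.10 and Dnmt3a with -0.28 ± 0.08. They were 2 of the 4 tested genes of the primed epiblast, and the other 2, Lef1 and Cdh2, were higher.

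The counts of general cell function are to be read against 13.8% of all tested genes higher and 13.6% lower. Of 12 targets of p53, the damage-sensing factor, 7 were lower and none higher. Among them Bax, which drives cell death, averaged 797 ± 76.9 CPM in Mesendoderm wells and 915 ± 116 CPM in Undirected wells. Of 16 S phase genes 7 were lower, Hells, a chromatin remodeller, at 299.7 ± 43.4 CPM in Mesendoderm wells and 379.9 ± 70.7 CPM in Undirected wells, and of 17 mitosis genes 5 were lower. Of 13 cholesterol synthesis genes 6 were higher and none lower. None of 10 genes of glycolysis and hypoxia was called.

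The start difference depended on which signals followed. The effect of a pathway differed between the starts for 526 genes with Wnt (8.2%), 361 with RA (5.63%), 108 with Fgf (1.68%), 13 with Bmp (0.203%) and 0 with Tgfb, by edgeR's interaction contrasts. Without the 10% of cells with most UMIs, these counts were 219 for RA, 23 for Fgf and 0 for Bmp. With products of pathways in the fit, RA gave 163, and with at least 10 cells per well Fgf gave 166 and Bmp 7. At an unadjusted p under 0.05, Tgfb gave 298 genes (4.64%), and DESeq2 also called 0. Level by level, 730 genes (11.4%) differed by start where RA was plus and 1704 (26.6%) where it was minus. With Wnt, 1115 (17.4%) differed at plus and 1416 (22.1%) at minus, and with Fgf, 1819 (28.3%) at plus and 479 (7.46%) at minus. Cell numbers moved with these levels and their part in the counts was not tested. RA plus wells, with fewer calls, held a mean of 47.2 cells with the Mesendoderm start and 25.5 with the Undirected start, and RA minus wells 37.1 with the Mesendoderm start and 20.6 with the Undirected start. Fgf plus wells, with more calls, held a mean of 50.2 cells with the Mesendoderm start and 24.8 with the Undirected start, and Fgf minus wells 34.2 with the Mesendoderm start and 20.9 with the Undirected start. Wnt plus wells held 40.8 cells with the Mesendoderm start and 15.1 with the Undirected start, and Wnt minus wells 43.5 with the Mesendoderm start and 30.3 with the Undirected start. The median SE was 0.0837 at Fgf plus and 0.0958 at Fgf minus.

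Among the genes named for RA, anterior Hox genes differed most. Hoxb2 (chr11:96350525-96354012, plus strand), which patterns the hindbrain, averaged 57.6 ± 20.4 CPM in Mesendoderm wells and 144 ± 77.0 CPM in Undirected wells where RA was plus and Wnt minus (SD, n = 16 wells each). With RA and Wnt both plus it averaged 58.5 ± 24.7 CPM in Mesendoderm wells and 36.4 ± 30.3 CPM in Undirected wells (n = 16 and 14). With RA minus and Wnt plus it averaged 54.9 ± 31.0 CPM in Mesendoderm wells and 6.22 ± 6.40 CPM in Undirected wells, and with both minus 15.2 ± 8.05 CPM in Mesendoderm wells and 8.69 ± 8.20 CPM in Undirected wells. In Undirected wells Hoxb2 was high mainly with RA plus and Wnt minus, and in Mesendoderm wells with either signal at plus. The start difference of Hoxb2 was -0.30 ± 0.19 at RA plus (adjusted p = 0.346) and 2.54 ± 0.31 at RA minus (adjusted p = 1.52e-11). The RA effect was 0.86 ± 0.17 with the Mesendoderm start and 3.70 ± 0.27 with the Undirected start, and these differed by -2.85 ± 0.34 (adjusted p = 2.29e-10).

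Where RA was plus, Hoxb4 moved with Wnt in opposite directions in the 2 starts. With RA plus and Wnt minus, Hoxb4 had a lowest, median and highest value of 6.99, 18.1 and 32.7 CPM in Mesendoderm wells, against 4.65, 60.3 and 127 CPM in Undirected wells. With RA and Wnt both plus it had 13.1, 36.8 and 56.9 CPM in Mesendoderm wells, against 0, 11.1 and 47.7 CPM in Undirected wells. So the order of the starts turned round between these settings, though the wells overlapped in both. At RA minus, the highest Undirected well had 12.4 CPM with Wnt plus and 4.69 CPM with Wnt minus. The highest Mesendoderm well there had 37.1 CPM with Wnt plus and 13.3 CPM with Wnt minus. The fall with Wnt plus in Undirected wells was thus seen at RA plus and not at RA minus. The fit had no product of RA and Wnt, so each fitted Wnt effect is 1 value for both RA levels. The Wnt effect on Hoxb4 was 1.25 ± 0.15 on the log2 scale with the Mesendoderm start (adjusted p = 5.21e-12) and -1.497 ± 0.23 with the Undirected start (adjusted p = 1.37e-08). The difference of these effects was 2.75 ± 0.27 (adjusted p = 1.97e-14). Hoxb1, the most anterior member of its cluster, had Wnt effects of 1.33 ± 0.19 in Mesendoderm wells and -1.07 ± 0.28 in Undirected wells. Hoxa5 had RA effects of 1.47 ± 0.18 in Mesendoderm wells and 4.12 ± 0.29 in Undirected wells. Whether the start changes the way RA and Wnt combine was not tested as a joint term.

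**Figure D4:**
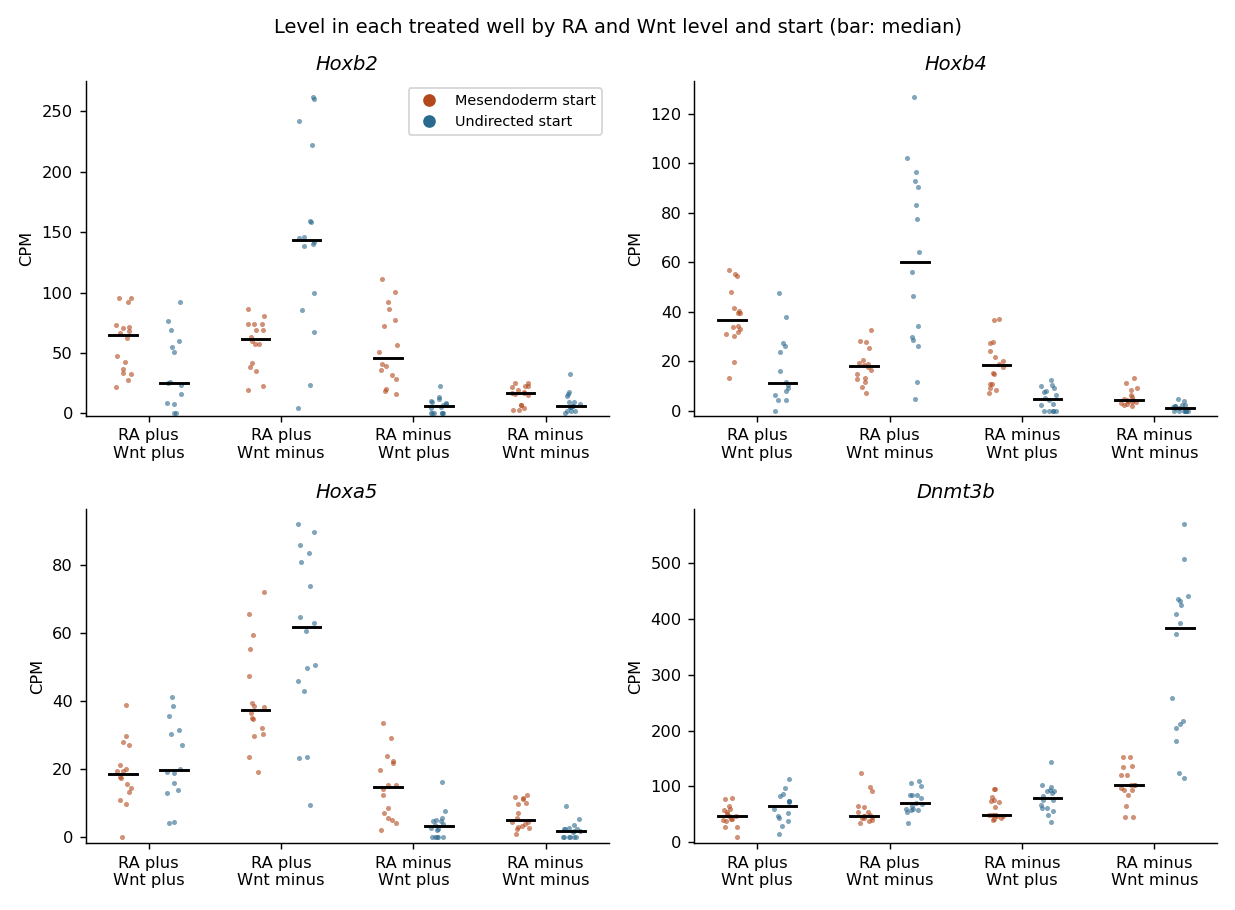
CPM of Hoxb2, Hoxb4, Hoxa5 and Dnmt3b in each treated well by RA and Wnt level, with Mesendoderm wells left of Undirected wells (16 wells per group, 14 for Undirected with both plus) and black bars for medians. Median Hoxb2 was 61.4 CPM in Mesendoderm wells and 143 CPM in Undirected wells with RA plus and Wnt minus.

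Stra8, which retinoic acid switches on in germ cells before meiosis, averaged 195 ± 112 CPM in Mesendoderm wells and 659 ± 362 CPM in Undirected wells with RA plus and Wnt minus. With both minus, Stra8 averaged 21.1 ± 12.5 CPM in Mesendoderm wells and 21.2 ± 18.6 CPM in Undirected wells. Meis2, a homeobox cofactor of Hox proteins, averaged 72.0 ± 23.4 CPM in Mesendoderm wells and 108 ± 44.5 CPM in Undirected wells with RA plus and Wnt minus, and 52.97 ± 8.49 CPM in Mesendoderm wells and 18.0 ± 10.2 CPM in Undirected wells with both plus. Of 11 tested retinoic acid targets, 5 were higher over all settings, among them Meis2, Tshz1 and Cdx1, and Stra8 was lower, though without pathway terms Meis2 differed by -0.093. Among all genes tested, 13.8% were higher and 13.6% lower.

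Dnmt3b (chr2:153649450-153687730, plus strand), the de novo DNA methyltransferase of primed epiblast, differed by start mainly where RA and Wnt were both minus. There Dnmt3b had a lowest, median and highest value of 45.2, 103 and 153 CPM in Mesendoderm wells, against 114, 383 and 569 CPM in Undirected wells. With RA plus and Wnt minus its medians were 47.7 CPM in Mesendoderm wells and 69.6 CPM in Undirected wells. With both plus, the highest well had 78.8 CPM in Mesendoderm wells and 113 CPM in Undirected wells. The fit had no product of RA and Wnt, so its start difference of Dnmt3b need not match these levels at RA plus. That fitted difference was -0.04 ± 0.14 at RA plus and -1.16 ± 0.12 at RA minus, and these differed by 1.11 ± 0.18 (adjusted p = 3.62e-06). Pim2, a survival kinase, and Dab1, an adaptor of reelin signalling, differed in the same direction by 1.04 ± 0.30 and 0.89 ± 0.23, and Pim2 by -0.094 (adjusted p = 0.914) once products of pathways were in the fit. Pmp22 averaged 57.5 ± 41.6 CPM in Mesendoderm wells and 48.8 ± 43.4 CPM in Undirected wells at RA plus, and 43.3 ± 51.0 CPM in Mesendoderm wells and 6.83 ± 6.85 CPM in Undirected wells at RA minus, where its start difference was 2.59 ± 0.31.

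With Wnt, Vim differed by start mainly at minus. At Wnt plus it averaged 66.6 ± 31.8 CPM in Mesendoderm wells and 56.7 ± 30.9 CPM in Undirected wells, and at Wnt minus 106 ± 52.8 CPM in Mesendoderm wells and 33.3 ± 15.0 CPM in Undirected wells. The start difference of Vim was 0.17 ± 0.15 at Wnt plus and 1.58 ± 0.13 at Wnt minus, and these differed by -1.41 ± 0.21 (adjusted p = 1.20e-07). Amot, a regulator of the Hippo pathway, and Mobp, a gene of myelin, differed by -1.43 ± 0.29 and -1.43 ± 0.32. T differed by start by 0.78 ± 0.17 at Wnt plus and 1.52 ± 0.25 at Wnt minus, and the difference between these was not called (adjusted p = 0.0955).

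With Fgf, the keratins differed by start mainly at plus. Krt18 averaged 239 ± 167 CPM in Mesendoderm wells and 68.8 ± 53.03 CPM in Undirected wells at Fgf plus, and 140.1 ± 125 CPM in Mesendoderm wells and 80.4 ± 76.9 CPM in Undirected wells at Fgf minus. The Fgf effect on Krt18 was 0.83 ± 0.15 with the Mesendoderm start (adjusted p = 6.67e-06) and -0.34 ± 0.21 with the Undirected start (adjusted p = 0.289), and these differed by 1.17 ± 0.26 (adjusted p = 0.00390). Anxa5, a phospholipid-binding protein, and Ahnak, a large scaffold under the membrane, differed in the same direction by 1.22 ± 0.26 and 1.09 ± 0.22. Mest, an imprinted gene, differed the other way by -1.03 ± 0.22, with Dcaf12l1 at -1.10 ± 0.24 and Cobl, an actin nucleator, at -0.88 ± 0.22. With Bmp, Slc2a3, a glucose transporter, had a start difference of -0.21 ± 0.11 at plus and 0.54 ± 0.11 at minus.

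**Figure D5:**
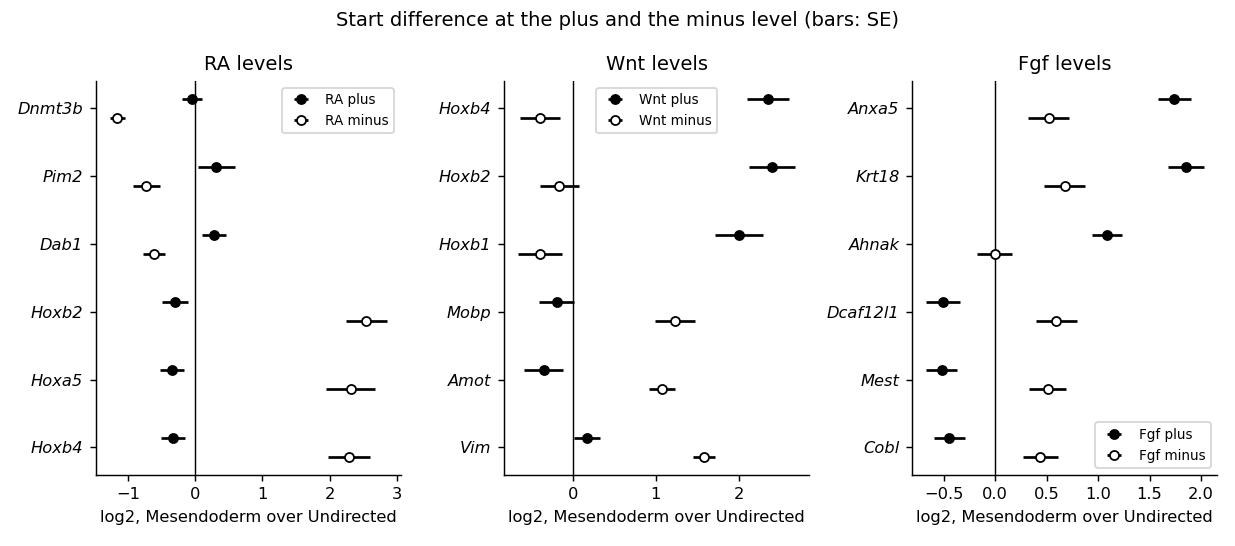
Log2 difference of Mesendoderm over Undirected wells at the plus level (filled) and the minus level (open) of RA, Wnt and Fgf for the genes named for each pathway, with bars for the SE. Hoxb2 lies at -0.30 at RA plus and at 2.54 at RA minus.

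Control wells had the same starts and no combination. Of 6747 genes tested with all wells in the fit, 332 (4.92%) were higher and 293 (4.34%) lower in Mesendoderm than in Undirected control wells (n = 8 each). The start difference itself differed between treated and control wells for 162 genes (2.4%), 71 (1.05%) in the higher and 91 (1.35%) in the lower direction. Of the 24 genes named by size Greb1 was the only one among them, with a change of 1.20 ± 0.35 (adjusted p = 0.0385). Mylpf, a myosin light chain of muscle, averaged 398 ± 81.3 CPM in Mesendoderm control wells and 103 ± 22.5 CPM in Undirected control wells, a log2 difference of 1.95 ± 0.23, against 0.26 ± 0.08 in treated wells. Porcn, the enzyme that lipidates Wnt ligands, averaged 25.0 ± 4.67 CPM in Mesendoderm control wells and 5.08 ± 3.50 CPM in Undirected control wells, a difference of 2.23 ± 0.29, against 0.23 ± 0.11 in treated wells (adjusted p = 3.88e-06 for the change). Id2, a target of BMP, averaged 69.4 ± 7.54 CPM in Mesendoderm control wells and 154 ± 42.1 CPM in Undirected control wells, a difference of -1.17 ± 0.20, against 0.24 ± 0.09 in treated wells. Hes6, a neurogenic factor, averaged 17.7 ± 5.10 CPM in Mesendoderm control wells and 51.7 ± 16.5 CPM in Undirected control wells, a difference of -1.55 ± 0.20. Mobp and Kif1a were the other 2 named for this contrast, with changes of -1.81 ± 0.41 and 1.24 ± 0.32.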

How the data were processed

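UMI counts per gene and cell (27998 genes) and the assignment of cells to wells were deposited by the authors. Per the submitters' processing notes, HTSeq 0.9.1, STAR 2.5.2b and Cell Ranger 1.3.1 were among the tools, with no role given, and mm10 was the build. The deposited counts were used as raw counts. The deposited share of a cell's barcodelet counts taken by its 3 most abundant barcodelets, a fraction by its column name, was only summarised per well. They were summed per well over assigned cells, keeping wells with at least 5 cells, and fitted with edgeR 4.0.16 (R 4.3.3, limma 3.58.1): TMM scaling, a filter on low counts by start, and the quasi-likelihood test with Benjamini-Hochberg adjustment over all genes tested. Pathways (plus 0.5, minus -0.5) were terms within each start. Levels are CPM on TMM-scaled library sizes. Shares of variance used log2(CPM + 5). Genes were named by size of the called difference at a mean of at least 10 CPM, 12 each way for the start and 3 each way for other contrasts. Members and the 35 gene lists (455 genes) were chosen with earlier results of these data known. The 2 wells of a condition differ in the external barcodelets listed, which was used as a replicate block. Doublets were not called. DESeq2 1.42.0 was an alternative. The fit was tested on simulated data. Intervals and p-values cover the spread between wells of 1 library. Some items are not reported here.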

Additional observations from a re-analysis of the deposited data

Results flagged for a closer look

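In control wells, 1 well stood far from the other 7 of its start for 7 of the 24 genes named by size, where 48 groups of 8 wells were looked at and chance gives about 1 in 20. The highest Dlk1 well with the Mesendoderm start had 29.5 CPM, against 18.9 CPM in the next. With the Undirected start, the highest well had 22.1 CPM of Cdh2 (next 6.95), 90.7 CPM of Hmga2 (next 52.5), 26.9 CPM of Greb1 (next 14.4), 168 CPM of Hmox1 (next 108) and 159 CPM of Spp1 (next 93.4). The lowest Ltbp4 well with the Mesendoderm start had 20.8 CPM, against 30.9 CPM in the next.

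The effect of a pathway in Mesendoderm wells less that in Undirected wells differed by the interaction test for the genes named, on the log2 scale. For RA these differences were 1.11 for Dnmt3b, 1.04 for Pim2, 0.89 for Dab1, -2.85 for Hoxb2, -2.65 for Hoxa5 and -2.61 for Hoxb4. For Wnt they were 2.75 for Hoxb4, 2.56 for Hoxb2, 2.40 for Hoxb1, -1.43 for Mobp, -1.43 for Amot and -1.41 for Vim. For Bmp they were 0.46 for Csrp2, 0.28 for Ube3a, -0.90 for Igfbp3, -0.75 for Slc2a3 and -0.75 for Tcea3. For Fgf they were 1.22 for Anxa5, 1.17 for Krt18, 1.09 for Ahnak, -1.10 for Dcaf12l1, -1.03 for Mest and -0.88 for Cobl. The start difference in treated less control wells was 1.40 for Id2, 1.25 for Hes6, 1.24 for Kif1a, 1.20 for Greb1, -1.998 for Porcn, -1.81 for Mobp and -1.69 for Mylpf.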

How the results depend on the processing

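With every gene with at least 1 UMI, where the fit gave each gene the spread of the trend and so too small p-values, there were 2938 start calls (2159 higher), 565 RA calls (340 lower), 851 Wnt calls (536 higher), 40 Tgfb calls (22 higher, 18 lower), 87 Bmp calls (37 higher, 50 lower), 242 Fgf calls (175 higher, 67 lower), 549 genes higher in control wells and 295 that differed between treated and control wells (157 higher, 138 lower). The wider filter gave 2656 start calls (1386 higher). With at least 20 cells per well there were 1090 start calls (471 lower), and with at least 10 there were 7 Bmp calls (4 higher, 3 lower) and 166 Fgf calls (74 lower). Cells thinned to 8000 UMIs gave 673 start calls (352 higher, 321 lower), with 3173 genes tested. Without the 10% of cells with most UMIs there were 219 RA calls (92 higher, 127 lower), 0 Bmp calls, 23 Fgf calls (18 higher, 5 lower) and 102 between treated and control wells (42 higher, 60 lower). With products of pathways in the fit there were 163 RA calls (76 higher, 87 lower), 4 Bmp calls in the higher direction and 56 Fgf calls in the lower, and DESeq2 gave 7 Bmp calls in the higher direction.

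With the replicate block on external barcodelet wells there were 1818 start calls (915 higher, 903 lower), against 1759 without it. Wells that list external barcodelets gave 875 calls (476 higher, 399 lower) and the others 1124 (511 lower), each from 63 wells. With the ribosomal protein share of the well as a covariate there were 1646 start calls, and with its barcodelet count 1753. Both, the block and the 2 splits were chosen after seeing the data, as was the wider filter.

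The fitted direction turned for Hspg2 with at least 20 cells per well (-0.043) and for anterior Hox genes in models without pathway terms of their own in each start. Without pathway terms, Hoxb2, Hoxb4, Hoxa5 and Meis2 were at -0.26, -0.36, -0.30 and -0.093. With 1 effect per pathway, Hoxb2, Hoxb4, Hoxa5 and Hoxb1 were at -0.092, -0.32, -0.10 and -0.030, and with the 32 combinations as a block at -0.023, -0.26, -0.12 and -0.035. The RA difference of Pim2 was -0.094 with products of pathways. None of these was called, and the cause was not tested. As means over cells, Mesendoderm less Undirected wells was 98.0 UMIs per cell, -100.2 genes per cell (p = 0.0484) and 0.475 percentage points of mitochondrial counts (p = 0.00195), by permutation test. Of 2158 values for single genes and the start in treated wells, 2016 kept their direction and side of the threshold, 129 lost the call and 13 turned. Depth limits genes below about 10 CPM, since the smallest well held 101140 UMIs.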
